A study of Mus musculus with 24 samples.

Results

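Decorin, lumican, biglycan, fibromodulin, osteoglycin, PRELP and asporin are small leucine-rich proteoglycans, secreted proteins that bind collagen fibrils. They were examined together with tenomodulin, thrombospondin 4 and cartilage oligomeric matrix protein, the product of Comp, which mark tendon and the junction between muscle and tendon. Members were the rows of the count table whose mouse symbol was Dcn, Lum, Bgn, Fmod, Ogn, Prelp, Aspn, Tnmd, Thbs4 or Comp, 10 of 47643 genes, and each symbol matched a row. The samples were plantaris muscles, a fast hindlimb muscle with a long tendon, of wild-type C57BL/6 animals, 11 from mice that breathed normal air and 13 from mice given tobacco smoke over 16 weeks. The labels give no age, sex or cage, and they do not say outright that each sample is a separate mouse, so p-values measure the spread between these samples. The series title concerns the aryl hydrocarbon receptor in muscle impaired by smoking, and the comparison asks which muscle transcripts differ after smoke. Transcripts were counted by 3′-end sequencing, in which a transcript gives reads near its poly(A) tail so no division by gene length was made, levels are not compared between genes, and a gene's share of a summed list below is a share of counts.

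Small leucine-rich proteoglycans share a horseshoe-shaped repeat domain that lies along collagen fibrils and limits or guides their lateral growth, and several carry chondroitin, dermatan or keratan sulphate chains. In muscle they are made mainly by fibroblasts of the connective tissue sheaths, and decorin and biglycan also bind TGF-β and other growth factors. Tendon cells make fibromodulin, tenomodulin, thrombospondin 4 and Comp at high levels, under transcription factors such as scleraxis and Mohawk.

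Libraries held 2515697 to 4528845 counts each. The 11 skeletal muscle fibre markers summed to 140000 to 217800 CPM (counts scaled to a common library total) in air and to 147100 to 186100 CPM in smoke. Among 10159 genes with enough counts to test, 195 (1.92%) were called different in smoke (edgeR quasi-likelihood test, Benjamini-Hochberg adjusted p under 0.05), 121 (1.19%) of them lower in smoke and 74 (0.728%) higher. Every sample was used. Bulk samples cannot tell fewer cells of a type from less RNA per cell, and this holds for each value below.

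No gene of the group was called. Of the 10 members 9 passed the expression filter, and all 9 had a log2 fold change (smoke against air) below 0, from −0.75 for Tnmd to −0.01 for Ogn, with a median of −0.19, while 48.4% of all tested genes were below 0 and their median was 0.0066. Called were 0 of 9 by edgeR, by DESeq2 and by limma voom, though voom placed Tnmd at −1.05 (adjusted p = 0.0557) and Fmod at −0.72 (adjusted p = 0.242), against −0.75 and −0.33 by edgeR. By edgeR 2 of 9, Tnmd and Aspn, had an unadjusted p under 0.05, both lower in smoke, which 15.5% of all tested genes also reached in either direction and 7.95% in the lower direction. Comp stayed under the filter. Smoke and air values overlapped for each member.

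**Figure D1:**
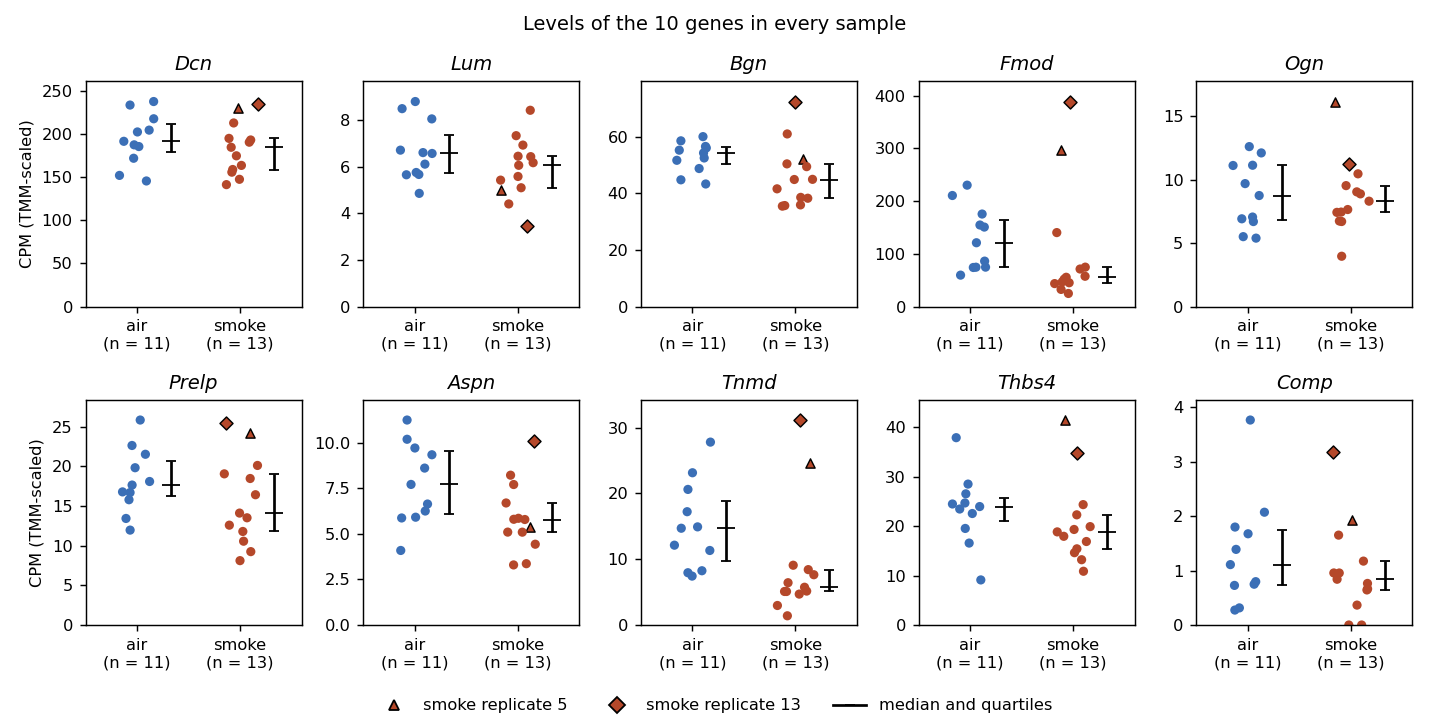
CPM (vertical axis, TMM-scaled) of each of the 10 genes in every air sample (n = 11) and smoke sample (n = 13), with the median and quartiles beside the points; smoke replicates 5 and 13 have their own symbols. For Fmod and Tnmd, 8 of 13 smoke samples lie below the lowest air sample while replicates 5 and 13 lie among the 3 highest of all 24.

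Tnmd encodes tenomodulin, a membrane protein of tendon cells that supports their proliferation and collagen fibril maturation. Its level was 7.44, 14.7 and 27.8 CPM (lowest, median and highest) in air and 1.40, 5.74 and 31.2 CPM in smoke. Most smoke samples were low: 8 of 13 lay below the lowest air sample, and 11 of 13 below the air median, but the highest value of all samples was also a smoke sample, replicate 13, and replicate 5 had rank 3 at 24.6 CPM. The next smoke sample had 9.09 CPM. Means were 15.05 ± 6.64 CPM (SD, n = 11) in air and 9.04 ± 8.72 CPM (SD, n = 13) in smoke, and the log2 fold change was −0.75 (SE 0.31, 95% interval −1.38 to −0.12), which did not pass (edgeR, adjusted p = 0.216).

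Fmod, which encodes fibromodulin, a keratan sulphate proteoglycan that regulates fibril assembly and is abundant in tendon, had a like spread. It stood at 59.5, 121 and 230.1 CPM in air and at 24.7, 55.4 and 389 CPM in smoke. Again 8 of 13 smoke samples were below the lowest air sample, and replicates 13 (389 CPM) and 5 (297 CPM) were the highest of all 24; the next smoke sample had 140.2 CPM. The smoke median was 0.459 times the air median, whereas the smoke mean, 102 ± 112 CPM (SD, n = 13), was 0.797 times the air mean, 128 ± 59.85 CPM (SD, n = 11). The log2 fold change of −0.33 (SE 0.34, 95% interval −1.03 to 0.36) did not pass (edgeR, adjusted p = 0.709).

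Both genes were among the most variable of the table. The biological coefficient of variation, the spread between samples beyond counting error, was 57.1% for Fmod and 51.2% for Tnmd, at the 99.9th and 99.8th percentile of tested genes. The highest smoke sample exceeded the lowest 15.7-fold for Fmod and 22.2-fold for Tnmd, against 3.87-fold and 3.74-fold in air. The lowest smoke value was 75 counts for Fmod but 5 for Tnmd, so counting error weighs on the Tnmd ratio. The SD of log2 CPM was 1.17 in smoke and 0.68 in air for Fmod, and 1.05 and 0.62 for Tnmd; the difference in spread was not tested.

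The upstream sequences of these 2 genes are shown because their levels moved together from sample to sample. They are the 250 bases before the transcription start from RefSeq's GRCm38.p6 table, printed 5′ to 3′ on the gene's strand, with each E-box (CANNTG, the letters bound by scleraxis and other basic helix-loop-helix factors, read on both strands) in capitals. Fmod lies at chr1:134037004-134037253 on the plus strand and Tnmd at chrX:133850758-133851007 on the plus strand.
Fmod: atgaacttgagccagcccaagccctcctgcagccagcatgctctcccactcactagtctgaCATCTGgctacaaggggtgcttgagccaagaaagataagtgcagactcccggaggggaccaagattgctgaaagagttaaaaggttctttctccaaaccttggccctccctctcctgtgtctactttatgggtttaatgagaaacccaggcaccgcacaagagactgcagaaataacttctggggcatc
Tnmd: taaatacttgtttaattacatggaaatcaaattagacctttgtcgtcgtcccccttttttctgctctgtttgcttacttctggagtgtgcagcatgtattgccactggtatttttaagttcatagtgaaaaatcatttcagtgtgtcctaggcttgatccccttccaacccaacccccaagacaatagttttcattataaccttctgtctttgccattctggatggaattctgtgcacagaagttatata
The Fmod stretch holds 1 E-box and the Tnmd stretch none. Neither holds TATAAA on either strand. Of 32851 upstream sequences of the same length in the table, 66.2% hold at least 1 CANNTG and 12.4% hold TATAAA, and the motifs cannot overlap, since TATAAA holds neither C nor G. The table held 7 of the 10 members, of which 5 had an E-box.

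Thbs4 encodes thrombospondin 4, a pentameric matrix protein of the muscle-tendon junction. It stood at 9.13, 23.99 and 37.9 CPM in air and 10.9, 18.9 and 41.5 CPM in smoke. The groups overlapped over nearly the whole range: the lowest sample of all was an air sample, replicate 11, and the highest was smoke replicate 5. The log2 fold change was −0.19 (SE 0.17, edgeR adjusted p = 0.673). Comp, its relative in the thrombospondin family, was close to the detection limit, with 0 to 14 counts per sample, 51 over the 11 air and 44 over the 13 smoke samples. Its mean was 1.34 ± 1.00 CPM (SD) in air and 1.01 ± 0.854 CPM (SD) in smoke, a difference of −0.33 CPM (two-sided permutation p = 0.406, 100000 resamples). The highest Comp values were those of air replicate 4 at 3.77 CPM and smoke replicate 13 at 3.17 CPM.

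Among the class I proteoglycans, which carry chondroitin or dermatan sulphate chains or, in asporin, an aspartate stretch, decorin, which binds collagen and TGF-β, had the narrowest interval. Dcn stood at 146, 192 and 237.97 CPM in air and 141.5, 185 and 235.5 CPM in smoke, with groups that overlapped almost wholly. The log2 fold change was −0.08 (SE 0.084, edgeR adjusted p = 0.713), with a 95% interval of −0.25 to 0.09. Bgn, which encodes biglycan, a ligand of the sarcoglycan complex and of TGF-β, was at 43.3, 54.3 and 60.0 CPM in air and 35.5, 44.9 and 72.4 CPM in smoke. Of the smoke samples 6 of 13 were below the lowest air sample, and the 2 highest of all, replicates 13 and 7, were smoke samples too. Its log2 fold change was −0.19 (SE 0.097, 95% interval −0.39 to 0.003, edgeR adjusted p = 0.332). Aspn, which encodes asporin, an inhibitor of TGF-β signalling, was at 4.09, 7.72 and 11.3 CPM in air and 3.30, 5.79 and 10.1 CPM in smoke. Aspn rested on 10 to 45 counts per sample, and the air mean exceeded 11 of the 13 smoke values. Its log2 fold change of −0.41 (SE 0.17, 95% interval −0.76 to −0.06) did not pass (edgeR adjusted p = 0.223). Aspn overlaps Cenpp on the opposite strand, and whether counting used strand is not given in the sources used here.

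The remaining proteoglycans belong to classes II and III. Prelp, whose product anchors basement membranes to collagen, stood at 11.95, 17.6 and 25.8 CPM in air and 8.11, 14.1 and 25.4 CPM in smoke, with 4 of 13 smoke samples below the lowest air sample. Lum, which encodes lumican, a regulator of fibril diameter, was at 4.86, 6.57 and 8.80 CPM in air and 3.46, 6.06 and 8.42 CPM in smoke. Lum rested on 12 to 33 counts per sample, so counting error is a large part of its spread. Ogn, which encodes osteoglycin, also called mimecan, was at 5.38, 8.74 and 12.6 CPM in air and 3.96, 8.29 and 16.1 CPM in smoke. It rested on 12 to 44 counts per sample. Their log2 fold changes were −0.23 (SE 0.15) for Prelp, −0.18 (SE 0.14) for Lum and −0.01 (SE 0.17) for Ogn, with edgeR adjusted p of 0.508, 0.587 and 0.986. For these 3 genes the groups overlapped widely. Prelp overlaps Gm15851 and Ogn overlaps Cenpp, each on the opposite strand.

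**Figure D2:**
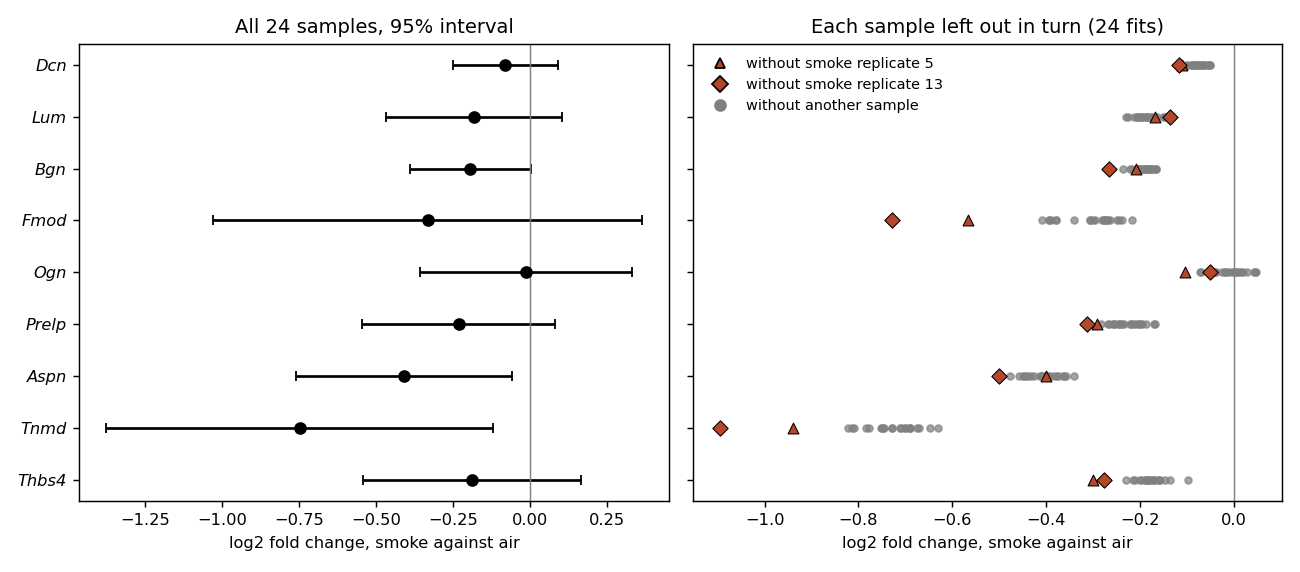
Log2 fold change (horizontal axis, smoke against air) of the 9 tested members with its 95% interval over all 24 samples (left) and with each sample left out in turn (right). Leaving out smoke replicate 13 takes Tnmd from −0.75 to −1.10 and Fmod from −0.33 to −0.73.

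The estimates of Tnmd and Fmod moved most with smoke replicates 13 and 5. Without smoke replicate 13 the log2 fold change of Tnmd was −1.10 and passed (edgeR adjusted p = 0.0224), so that 1 of 9 members was called, and that of Fmod was −0.73 (adjusted p = 0.188). Without smoke replicate 5 they were −0.94 (edgeR adjusted p = 0.0999) and −0.57 (adjusted p = 0.433). That of Thbs4 was −0.30 without smoke replicate 5 (edgeR adjusted p = 0.395) and −0.10 without air replicate 7 (adjusted p = 0.856). With any other single sample left out, Tnmd was not called. In smoke replicates 5 and 13 the 20 other tendon genes, none of them members, summed to 267 CPM (replicate 5) and 254 CPM (replicate 13). These were the highest sums of all 24 samples, where air ranged from 168 to 241.3 CPM and smoke from 139 CPM upwards. The 16 collagen genes and their processing enzymes summed to 271 and 263.5 CPM there, against a smoke median of 204 CPM and an air range of 190.1 to 286.5 CPM. Muscle fibre markers summed to 150700 and 172900 CPM, within the range of the others. The smooth muscle and pericyte markers summed to 747 CPM in replicate 5, the highest of all 24 samples (air maximum 707 CPM), and to 685 CPM in replicate 13. Rgs5 made up 86.5% of the sum of that list. Its 5 other genes summed to 103 CPM in replicate 5 and 112 CPM in replicate 13 (air maximum 110 CPM). The other small leucine-rich proteoglycans summed to 38.8 CPM in replicate 5, also the highest (air maximum 32.5 CPM), and to 28.9 CPM in replicate 13. Podn made up 62.3% of that sum. The 9 others summed to 17.7 CPM in replicate 5 and 14.7 CPM in replicate 13 (air maximum 12.2 CPM). Lists share some genes, so their sums are not independent. The part of these gene groups in the result was not tested.

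**Figure D3:**
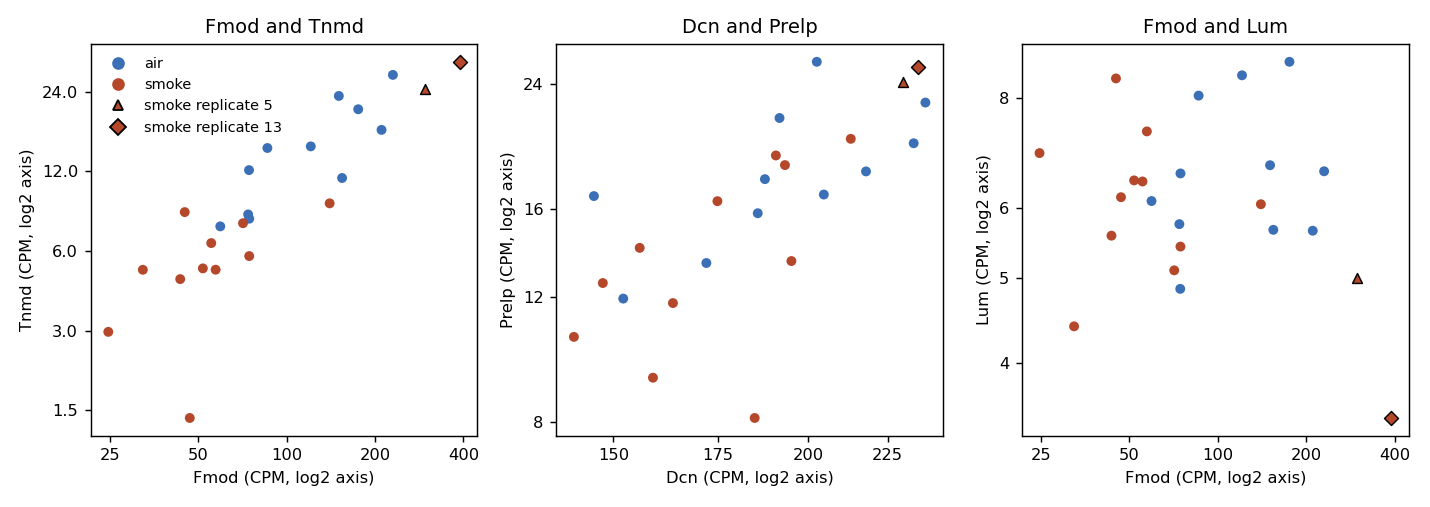
CPM of Fmod against Tnmd, Dcn against Prelp, and Fmod against Lum in each of the 24 samples (both axes on a log2 scale; colour gives the group). Fmod and Tnmd rise together in air and in smoke, and smoke replicate 13 combines the highest Fmod (389 CPM) with the lowest Lum (3.46 CPM).

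To ask which members varied together beyond the exposure, deviations of log2 CPM from the group mean were correlated over the 24 samples for all 36 pairs of the 9 tested members. The points share library and depth, and the share of positive pairs among other genes is not given here. Pairs were split by Lum after their signs were seen. All 28 pairs without Lum were positive, with r from 0.10 to 0.86 and a median of 0.50, and the 8 pairs with Lum were negative, from −0.35 to −0.13. With the 2 samples farthest from the Lum median left out, r of these 8 pairs lay nearer 0, from −0.18 to −0.0033. With the 2 farthest from the partner's median left out it was −0.36 to 0.14, and 3 of 8 pairs were positive. After Benjamini-Hochberg adjustment over the 36 pairs, 15 passed by Pearson's r and 6 by Spearman's rho (permutation within groups, 100000 resamples), and none with Lum did. The closest pair was Fmod and Tnmd, with r 0.86 (permutation p = 1e-05, the smallest these permutations can give, adjusted p = 0.00036) and rho 0.82 (permutation p = 2e-05, adjusted p = 0.00072). It was 0.84 in air and 0.87 in smoke, and 0.72 once the 2 samples farthest from the Fmod median were left out. Dcn and Prelp followed, with r 0.70 (permutation p = 0.00012, adjusted p = 0.00216) and rho 0.72 (permutation p = 0.00014, adjusted p = 0.00228). Here r was 0.66 in air, 0.75 in smoke and 0.72 once the 2 samples farthest from the Dcn median were left out.

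Values within each exposure group are given side by side. Within smoke 15 pairs passed by r, with a median r of 0.66 over the 28 pairs without Lum, and within air 0 of 36 passed, with a median of 0.22; in air the Fmod and Tnmd pair had permutation p = 0.00215 and adjusted p = 0.0774. Fmod and Thbs4 had r 0.48 over all samples (permutation p = 0.0206, adjusted p = 0.0494) but rho 0.26 (permutation p = 0.231, adjusted p = 0.346), and r was 0.70 in smoke, 0.06 in air and 0.11 once the 2 samples farthest from the Fmod median were left out, so that the relation rested on those samples, while it was 0.51 with the 2 farthest from the Thbs4 median left out. Lum had negative r with all 8 other members in smoke (−0.62 to −0.28) and positive r with 6 of 8 in air. Of the 28 pairs without Lum, 5 were negative in air and 0 in smoke. The difference between the groups' correlations was not tested.

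**Figure D4:**
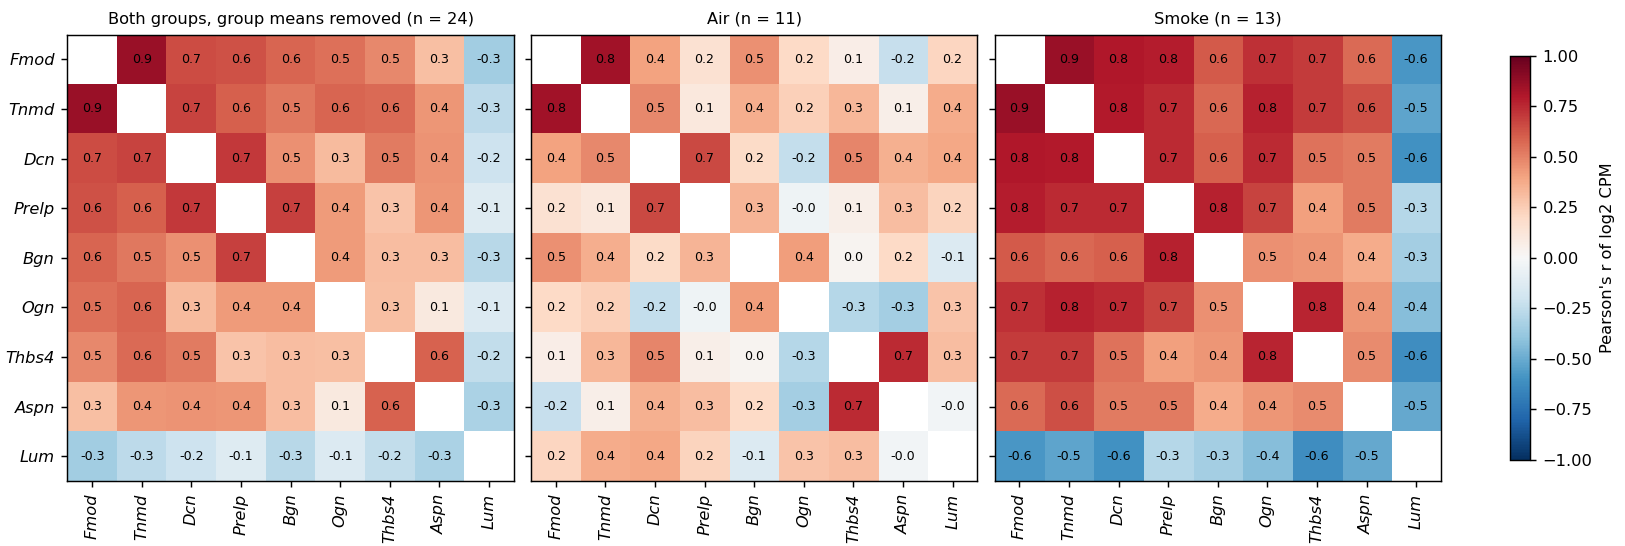
Pearson's r of log2 CPM between each pair of the 9 tested members, over both groups after removal of the group means (n = 24), within air (n = 11) and within smoke (n = 13); red is positive and blue negative. The Fmod and Tnmd cell is at 0.8 or above in each panel, while the row of Lum is blue in smoke and mostly pale red in air.

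Several of these genes sit side by side in the genome. In GENCODE M21, Prelp and Fmod are neighbours on chromosome 1 beside Optc, Dcn and Lum on chromosome 10 beside Kera and Epyc, and Aspn and Ogn on chromosome 13 with Omd between them and Ecm2 beside Aspn. The 3 neighbouring pairs had r of unlike size. It was 0.64 for Prelp and Fmod (permutation p = 0.00186, adjusted p = 0.0112, rho 0.52, permutation p = 0.0134, adjusted p = 0.0536, and 0.50 or 0.43 once the 2 samples farthest from the Prelp or the Fmod median were left out). For Dcn and Lum r was −0.21 (permutation p = 0.344, adjusted p = 0.375, rho −0.18, permutation p = 0.416, adjusted p = 0.531, and −0.24 or −0.08 once the 2 samples farthest from the Dcn or the Lum median were left out), with 0.39 in air and −0.61 in smoke. For Aspn and Ogn r was 0.10 (permutation p = 0.648, adjusted p = 0.648, rho 0.05, permutation p = 0.803, adjusted p = 0.814, and 0.17 or −0.08 once the 2 samples farthest from the Aspn or the Ogn median were left out), with −0.34 in air and 0.44 in smoke.

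Of the 10 other small leucine-rich proteoglycans only Ecm2 and Podn passed the filter, with log2 fold changes of 0.03 (SE 0.25) and 0.01 (SE 0.17) and edgeR adjusted p of 0.971 and 0.992. Kera, which encodes keratocan, had 70 counts over the air samples and 44 over the smoke samples, and Epyc had 0 and 1. Of 20 other tendon genes 17 were tested, 14 of them below 0 (median log2 fold change −0.16), 5 at an unadjusted p under 0.05 and 1 called by edgeR, against 2 by DESeq2. The called gene was Tppp3, which encodes a tubulin-binding protein of the tendon sheath lineage. It fell from 26.4 ± 6.27 CPM (SD) in air to 18.1 ± 3.37 CPM (SD) in smoke, and each of the 13 smoke samples lay below the air mean (log2 fold change −0.54, SE 0.12, edgeR adjusted p = 0.0120). Under the replicate block described below Tppp3 did not pass (edgeR adjusted p = 0.05004), while on the same 22 samples without the block it did. Cilp, which encodes a cartilage matrix protein that binds TGF-β, was at 17.6 ± 5.96 CPM (SD) in air and 11.5 ± 4.31 CPM (SD) in smoke and did not pass (log2 fold change −0.61, edgeR adjusted p = 0.0579). Scx, which encodes scleraxis, was at 26.5 ± 4.91 CPM (SD) in air and 26.4 ± 2.75 CPM (SD) in smoke (log2 fold change −0.01, edgeR adjusted p = 0.984), and overlaps Bop1 on the opposite strand. Mkx, which encodes Mohawk, had 28 and 24 counts in all.

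By likeness to Fmod over the 24 samples, tendon genes ranged from near the top to far down. Among the 10158 other tested genes ordered by r, Cilp2 had rank 2, Tnmd rank 3, Abi3bp rank 6, Tnc rank 8 and Angptl7 rank 9. Col1a1, of the collagen list, had rank 4, and r was 0.78 to 0.87 for these genes. Cpxm2 had rank 11, Cilp 19, Ptgis 71, Fibin 83 and Fbln1 115. Chodl had rank 415, Mfap5 739, Clec3b 783, Prg4 1494, Pdgfra 7300 and Sox9 9083. Scx had rank 3733 with r 0.08 and Tppp3 rank 8508 with r −0.22. Angptl7 lies within Mtor on the opposite strand. Crispld2, an extracellular protein gene that overlaps Gm20388 on the same strand, came first (r 0.91, rho 0.88, and r 0.85 once the 2 samples farthest from the Fmod median were left out). These are descriptions, since the genes were ranked by this measure.

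Thrombospondin and tenomodulin relatives gave 2 tested genes of 5, Itm2a (log2 fold change −0.16, edgeR adjusted p = 0.383) and Thbs3 (−0.09, adjusted p = 0.883), and neither reached an unadjusted p under 0.05. Of the fibrillar and associated collagens with their processing enzymes, 13 of 14 tested genes were below 0 (median −0.23), 4 had an unadjusted p under 0.05 and 0 were called by edgeR; DESeq2 called 1 and limma voom 0. The 2 with the smallest p were Serpinh1, the collagen chaperone, at −0.33 (edgeR adjusted p = 0.0777), and Col1a1, at −0.37 (adjusted p = 0.183). Without smoke replicate 13 both passed (edgeR adjusted p = 0.0224 and 0.0392).

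Genes of the machinery around the proteoglycans lay on both sides of 0. Of 32 genes that build their sugar chains, 20 were tested, 13 above 0 and 7 below, with 0 called and 2 at an unadjusted p under 0.05, B4galt1 (0.15, edgeR adjusted p = 0.151) and Chst1, a keratan sulphate sulphotransferase (0.25, adjusted p = 0.220). The TGF-β list gave 8 of 16 tested genes on each side of 0 and 0 called, with 3 at an unadjusted p under 0.05. The smallest p were those of Ltbp4 (−0.23, edgeR adjusted p = 0.242) and the receptor Tgfbr1 (−0.22, adjusted p = 0.298). Tgfb2, the third of them, named after its values were seen, lay on the other side at 0.14 (edgeR adjusted p = 0.305). Matrix proteases with their enhancers and inhibitors gave 5 of 10 tested genes on each side and 0 called, with 3 at an unadjusted p under 0.05; Adamts1 was at −0.37 (edgeR adjusted p = 0.0914) and Mmp2, a gelatinase, at −0.37 (adjusted p = 0.109). The third, Adamts5, an aggrecanase named after its values were seen, lay on the other side at 0.37 (edgeR adjusted p = 0.219), and each of the 13 smoke samples exceeded the air mean. Single samples decided these calls: the log2 fold change of Mmp2 passed without smoke replicate 13 (edgeR adjusted p = 0.0196) or air replicate 10 (adjusted p = 0.0469), and that of Adamts1 without smoke replicate 2 (adjusted p = 0.0356). Of 13 cell surface receptors 8 were tested, 5 above 0 and 3 below (median 0.12), with 3 at an unadjusted p under 0.05 and 1 called. Lrp1, an endocytic receptor of decorin named after its values were seen, was at 0.21 and did not pass (edgeR adjusted p = 0.156). Cd44, the hyaluronan receptor, fell from 6.93 ± 1.87 CPM (SD) in air to 4.22 ± 1.01 CPM (SD) in smoke (log2 fold change −0.71, SE 0.16, edgeR adjusted p = 0.0142), below the air mean in 13 of 13 samples. Under the replicate block described below Cd44 did not pass (edgeR adjusted p = 0.0638), while on the same 22 samples without the block it did. It overlaps Gm23731 on the opposite strand.

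Markers of the cells that could carry these transcripts were counted beside them. All 15 fibroblast markers were tested, 9 below 0 and 6 above, with 0 called by edgeR and 1 by DESeq2. At an unadjusted p under 0.05 there were 6, of which 5 were lower in smoke and 1 higher. Fbn1, which encodes fibrillin, was at −0.42 (edgeR adjusted p = 0.0643) and Pi16 at −0.39 (adjusted p = 0.114). The higher one, Tcf4, named after its values were seen, was at 0.14 (edgeR adjusted p = 0.165). The list summed to 1951 to 2568 CPM in air and 1981 to 2816 CPM in smoke. Gsn, which encodes gelsolin and is not particular to fibroblasts, made up 84.3% of that sum, and the 14 other markers summed to 324 to 414 CPM in air and 324 to 394 CPM in smoke. The tendon cell markers that are not members, Scx, Mkx, Chad and Kera, summed to 24.4 to 39.6 CPM in air and 22.9 to 39.6 CPM in smoke, of which Scx made up 88.4%. The other 3 summed to 2.00 to 7.30 CPM in air and 0.319 to 13.8 CPM in smoke, the highest being smoke replicate 5. The 9 cartilage and bone markers summed to 1.68 to 7.56 CPM in air and 2.88 to 10.6 CPM in smoke, and only Col9a1 was tested (0.08, edgeR adjusted p = 0.934). Schwann cell and myelin markers were above 0 in 9 of 9 tested genes, with 6 called by edgeR, 5 by DESeq2 and 2 by limma voom. Only 3 were called when air replicate 3, 5, 8, 9 or 10 or smoke replicate 2, 10 or 12 was left out. The markers summed to 129 to 301 CPM in air and 194 to 948 CPM in smoke. Blood cell markers were below 0 in 5 of 5, with 3 called, all globins, whose near-identical copies can share reads, and summed to 487 to 1445 CPM in air and 369 to 883.5 CPM in smoke. The part of these cell types in the members' values was not tested.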

How the data were processed

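Members and gene lists were chosen with earlier results of these data known. The authors deposited raw read counts per Ensembl gene ID, 1 column per sample on 1 lane, per the file headers. The kit was Lexogen's QuantSeq 3′ FWD, per the labels' protocols, and the submitters' processing notes name STAR, DESeq2 and the build mm9 without their roles. The counting tool, annotation, strand use, read filters and molecular identifiers are not given in the sources used here. Symbols came from GENCODE M21 (GRCm38), which matched 47224 of 47643 IDs (99.1%). Because the builds differ, its gene coordinates are not printed, and positions of upstream sequences are those of RefSeq's own table.

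Titles gave each sample's exposure and number. Genes were kept by filterByExpr (minimum count 10), scaled by TMM and tested with edgeR 4.0.16 (R 4.3.3), quasi-likelihood F-test on 24 samples without covariates, Benjamini-Hochberg adjusted over 10159 genes, called under 0.05. SEs are the fold change over the root of F. The code was tested on simulated data. Correlations used log2 CPM with prior count 2. No 2 samples of a group agreed within sampling noise over 133 pairs (chi-square per gene 2.52 to 18.5). Counts may hold PCR copies, which the counts cannot show. SEs, intervals and p-values of the fits measure the spread between samples. In TMM-scaled CPM 1 count was 0.222 to 0.384.

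Genes named were the members, of each list the called genes or else the 2 with the smallest p, and for each member the 3 most alike; of the cell type lists some called genes are given by their counts, and 1 is not reported here. Cilp, Cilp2, Scx, Mkx, Kera, Epyc, Abi3bp, Tnc, Angptl7 and Chad were named after their values were seen. So were Cpxm2, Ptgis, Fibin, Fbln1, Chodl, Mfap5, Clec3b, Prg4, Pdgfra and Sox9. Alternatives were DESeq2 1.42.0, voom from limma 3.58.1, scaling by RLE or by the upper quartile, 2 other filters, removal of the 10 most abundant genes, the replicate number as a block, and leaving out each sample. No batch is given in the labels; sheet numbers in the headers list all smoke before all air samples, so sheet position and group cannot be told apart.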

Additional observations from a re-analysis of the deposited data

How the results depend on the processing

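Against 195 genes called, DESeq2 called 330, and its 0 members called did not change; the cause of the larger count was not tested. Leaving out each sample gave from 141 to 254 genes and from 0 to 1 members called, Tnmd without smoke replicate 13. The labels do not say that replicate numbers pair the samples. Deviations of same-numbered samples correlated at a mean r of −0.0059 over 11 pairs, against 0.0011 for other pairs. Of the 11 pairs 4 were above 0.1, and 2 of 11 air samples correlated best with their own number. Such correlations cannot exclude pairing. A replicate block, fitted on 22 samples because smoke replicates 12 and 13 share no number with air, gave 138 genes and 1 member, Tnmd, called (−1.12, edgeR adjusted p = 0.0313). The same 22 samples without the block, chosen after seeing the data, also gave 1 member, Tnmd (−1.06, edgeR adjusted p = 0.0353), and called 39 genes more than the 195, 1.70 times the count with the block. Under the block the log2 fold change of Tppp3 was −0.56 (adjusted p = 0.05004) and the log2 fold change of Cd44 was −0.67 (adjusted p = 0.0638), so neither passed, while on the same samples without it both did, at −0.57 (adjusted p = 0.0159) and −0.69 (adjusted p = 0.0232). Calls fell from 6 to 1 among Schwann cell and myelin markers (2 on the same samples without the block) and from 3 to 2 among blood cell markers, while Mmp2 gained a call with and without the block on these samples. Fmod was at −0.91 with the block (edgeR adjusted p = 0.0553) and −0.69 without it (adjusted p = 0.239). Block or not, and over all alternatives run, the adjusted p of Tnmd ranged from 0.0224 to 0.334.

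The 8 other tested members stayed uncalled under each alternative run. Ogn changed sign in 10 of 24 fits (−0.104 to 0.0470). Among other named genes near 0, leaving out 1 sample gave −0.0890 to 0.0880 for Podn, −0.0549 to 0.176 for Ecm2, −0.0743 to 0.213 for Col9a1 and −0.102 to 0.0588 for Slc2a1. The log2 fold change of Podn was −0.00251 with no filter, −0.00309 with a CPM filter, −0.0224 with the block and −0.0355 without it on 22 samples, and the log2 fold change of Slc2a1 was 0.0623 and 0.0844 in these last 2 fits. The count of member pairs that passed was 15, and 0 within air alone. Comp, tested by edgeR with no filter, was at −0.41 (adjusted p = 0.655).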

Other observations

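The genes most like the other members over the 24 samples, by r of deviations from the group mean, differed from member to member. S100a4, a calcium-binding protein of fibroblasts, came first for Dcn (r 0.78, rho 0.79, log2 fold change −0.23), and its family member S100a6 came first for Prelp (r 0.76, rho 0.76). Mrpl4, a mitochondrial ribosomal protein gene, came first for Bgn (r 0.72, rho 0.56, and r 0.44 when the 2 samples most distant in Bgn were dropped), followed by Mgp, which encodes matrix Gla protein, an inhibitor of calcification (r 0.71, rho 0.69), and Nudc (r 0.69, rho 0.65). Col1a2, a chain of type I collagen, came first for Thbs4 (r 0.79), but rho was 0.56 and r fell to 0.57 when the 2 samples most distant in Thbs4 were dropped. C1s1, a complement protease, came first for Ogn (r 0.75, rho 0.74). Lum's nearest genes were Gm2308, a pseudogene, Rps19bp1 and Cln8 (r 0.65 to 0.67), none of them a matrix gene. Aspn's first was N4bp2l1 (r 0.73, rho 0.63). C1s1 overlaps Gm16567 on the opposite strand, and S100a4 and Col1a2 each overlap another gene on the same strand. These genes were ranked by the measure itself and are given as descriptions.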
